A study of Mus musculus with 6 samples.

Results

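The genes described here encode the proteins of fatty acid uptake and oxidation. Members were picked by name for their known role, as 31 genes covering 4 steps, with earlier results of these data known. All 31 were found among the 15118 genes of the deposited table and all 31 passed the filter on low values. Uptake and activation held 7 genes, the carnitine shuttle 4, beta-oxidation with its auxiliary enzymes 17, and electron transfer 3. The beta-oxidation genes include the peroxisomal Hsd17b4. RNA was sequenced from whole mouse hearts at E12.5, a stage in days after mating, with 3 control and 3 Hif1a mutant hearts of the Black-Swiss strain. Hearts are named by genotype and the number in their label, as controls 2, 5 and 9 and mutants 5, 8 and 10. The genotype of every embryo included NKX2-5 Cre/WT, in which the Cre recombinase is expressed from the Nkx2-5 gene in cardiac progenitors and heart muscle. Control hearts were Hif1a WT/flox and mutant hearts Hif1a Null/flox. Both groups therefore carried Cre and a floxed allele, which Cre can recombine, and they differed in whether the other allele was wild type or null. Cells in which Cre is not active differ by the same allele. The product of Hif1a is the oxygen-sensitive partner in the transcription factor HIF1, and the question is which of the pathway's transcripts depend on the genotype. The labels do not say whether embryos were littermates, and p-values cover only the spread among these 6 hearts.

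Long-chain fatty acids are released from lipoproteins by lipoprotein lipase, cross the plasma membrane, are carried by binding proteins and are activated to acyl-CoA. Carnitine carries the acyl group into mitochondria, where each round of beta-oxidation shortens the chain and yields acetyl-CoA, and flavoproteins pass the electrons on to the respiratory chain. The adult heart draws most of its energy from this pathway, whereas the embryonic heart relies more on glucose. HIF1 is best known as an activator of glycolytic genes in low oxygen.

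HIF1 binds DNA at the core letters ACGTG or GCGTG, PPAR receptors and ERR receptors at sites built on AGGTCA, and ERR receptors at TCAAGGTCA, so these letters were searched on both strands of the 250 bases before each start in the RefSeq promoter table (GRCm38.p6). TCAAGGTCA contains AGGTCA, so a match to the longer motif would count under both. The table held 28 promoters of 25 members and 32851 promoters in all. ACGTG was present in 2 member promoters (7.14%), those of Acadvl and Slc27a1, against 16.6% of all promoters. GCGTG was present in 14 (50.0%) against 28.2% of all. These were the promoters of Acadm, Acads, Acadsb, Acadvl, Acsl1, Acsl3, Acsl4, Cpt2, Echs1, Eci2, Etfa, Etfdh, Hadh and Slc27a1. AGGTCA was present in 5 (17.9%), those of Acadm, Acadvl, Cd36, Cpt1a and Echs1, against 14.0% of all. TCAAGGTCA was present in 0 member promoters against 0.387% of all. The 32851 promoters were not matched to those of the members in base composition or expression level, and the shares were not tested. A match describes letters in a window and shows no binding.

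Of the members the table holds, the promoter printed for each step is that of the gene with the smallest p in the comparison of genotypes, read 5′ to 3′ along the gene and ending at the base before the RefSeq start. Capitals mark a match on either strand. In Cd36 (chr5:17835897-17836146, minus strand) TGACCT, which is AGGTCA on the opposite strand, begins 228 bases before the start, and this start lies inside the longer GENCODE gene. In Cpt1a (chr19:3323051-3323300, plus strand) the same letters begin 94 bases before the start. This window also lies inside the longer GENCODE gene, which begins at 3322334. Hsd17b10 (chrX:152001646-152001895, plus strand) held none of the 4 motifs, and its window runs past the GENCODE start at 152001845. Etfa (chr9:55512244-55512493, minus strand) held GCGTG at 112 and 21 bases before the start. The last sequence is the whole gap of 85 bases between the GENCODE ends of Hadha and Hadhb, which point away from each other (chr5:30155163-30155247, plus strand). It was chosen after the values were seen, because the pair encodes both subunits of 1 enzyme, and it held none of the motifs.
Cd36: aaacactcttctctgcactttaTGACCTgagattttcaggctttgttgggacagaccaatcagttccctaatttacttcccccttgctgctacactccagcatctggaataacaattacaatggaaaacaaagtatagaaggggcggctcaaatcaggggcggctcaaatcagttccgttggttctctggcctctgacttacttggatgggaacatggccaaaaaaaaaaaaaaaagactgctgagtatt
Cpt1a: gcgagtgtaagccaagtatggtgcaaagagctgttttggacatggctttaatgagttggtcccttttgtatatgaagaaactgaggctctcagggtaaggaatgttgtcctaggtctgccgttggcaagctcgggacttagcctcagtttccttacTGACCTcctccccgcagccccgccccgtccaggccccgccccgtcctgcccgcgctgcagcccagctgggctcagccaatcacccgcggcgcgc
Hsd17b10: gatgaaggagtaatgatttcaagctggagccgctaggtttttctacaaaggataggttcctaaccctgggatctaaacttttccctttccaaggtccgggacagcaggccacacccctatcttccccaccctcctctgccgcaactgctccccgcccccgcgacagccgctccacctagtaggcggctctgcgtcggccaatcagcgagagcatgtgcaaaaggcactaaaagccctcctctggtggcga
Etfa: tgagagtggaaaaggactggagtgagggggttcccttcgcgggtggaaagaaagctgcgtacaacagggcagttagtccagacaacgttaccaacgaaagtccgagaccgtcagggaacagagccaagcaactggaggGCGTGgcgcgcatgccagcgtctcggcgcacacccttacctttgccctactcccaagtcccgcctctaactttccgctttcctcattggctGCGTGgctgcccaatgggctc
Hadha and Hadhb: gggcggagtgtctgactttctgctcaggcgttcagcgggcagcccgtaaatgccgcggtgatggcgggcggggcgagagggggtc

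Levels are in RPKM, reads scaled to exon length and to the reads of the library, with the mean ± SD of 3 hearts per genotype. Differences are mutant minus control on the log2(RPKM + 1) scale, on which low genes appear less changed than they are, and were tested with limma over 13080 genes with a Benjamini-Hochberg adjusted p below 0.05 as the threshold. Hif1a itself (chr12:73901375-73947530, plus strand) had 61.1, 46.4 and 46.4 RPKM in the control hearts and 75.7, 55.0 and 77.7 RPKM in the mutant hearts, a log2 difference of 0.43 ± 0.16 (SE, adjusted p = 0.36 in limma). This value covers exons outside any deleted stretch as well, and cannot be used to check the deletion. The libraries held between 101500000 and 159100000 reads, as implied by the step of their low values, and correlated between 0.967 and 0.994. The first principal component (45.3% of the variance) had control 2 and mutant 8 at its ends, and mutant 5 correlated more with the controls (mean 0.988) than with the other mutants (0.985). Of 13080 genes 107 passed the threshold, 55 (0.42%) higher and 52 (0.398%) lower in mutant hearts. Summed cardiomyocyte markers lay between 5784 and 6979.6 RPKM in control and between 6306 and 7380 RPKM in mutant hearts, and all 8 were detected. Liver transcripts summed to at most 5.69 RPKM in any heart, from the 3 of 9 listed adipose and liver genes found in the table. No listed adipocyte gene was in the table, so the sum does not cover adipose tissue.

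The pathway was well expressed in E12.5 hearts. The mean over all 6 hearts ran from 2.51 RPKM for Slc27a1 to 270.1 RPKM for Fabp3, a 107-fold range, with a median of 42.3 RPKM against a median of 4.58 RPKM for the whole table. Of 31 members 30 were above that table median. Fabp3, the heart-type binding protein that carries fatty acids through the cytoplasm, alone made up 15.6% of the members' summed RPKM. Etfb (160.4 RPKM) and Etfa (157 RPKM), the subunits of the electron transfer flavoprotein, came next and did not differ from each other beyond their spread, followed by Acadl (119 RPKM), the long-chain acyl-CoA dehydrogenase. The lowest levels were in genes of uptake, activation and entry into mitochondria: Slc27a1, Acsl1 (5.31 RPKM), Cpt1a (6.25 RPKM) and Acsl4 (8.62 RPKM). Even Slc27a1 rested on at least 668 implied reads in every heart.

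**Figure D1:**
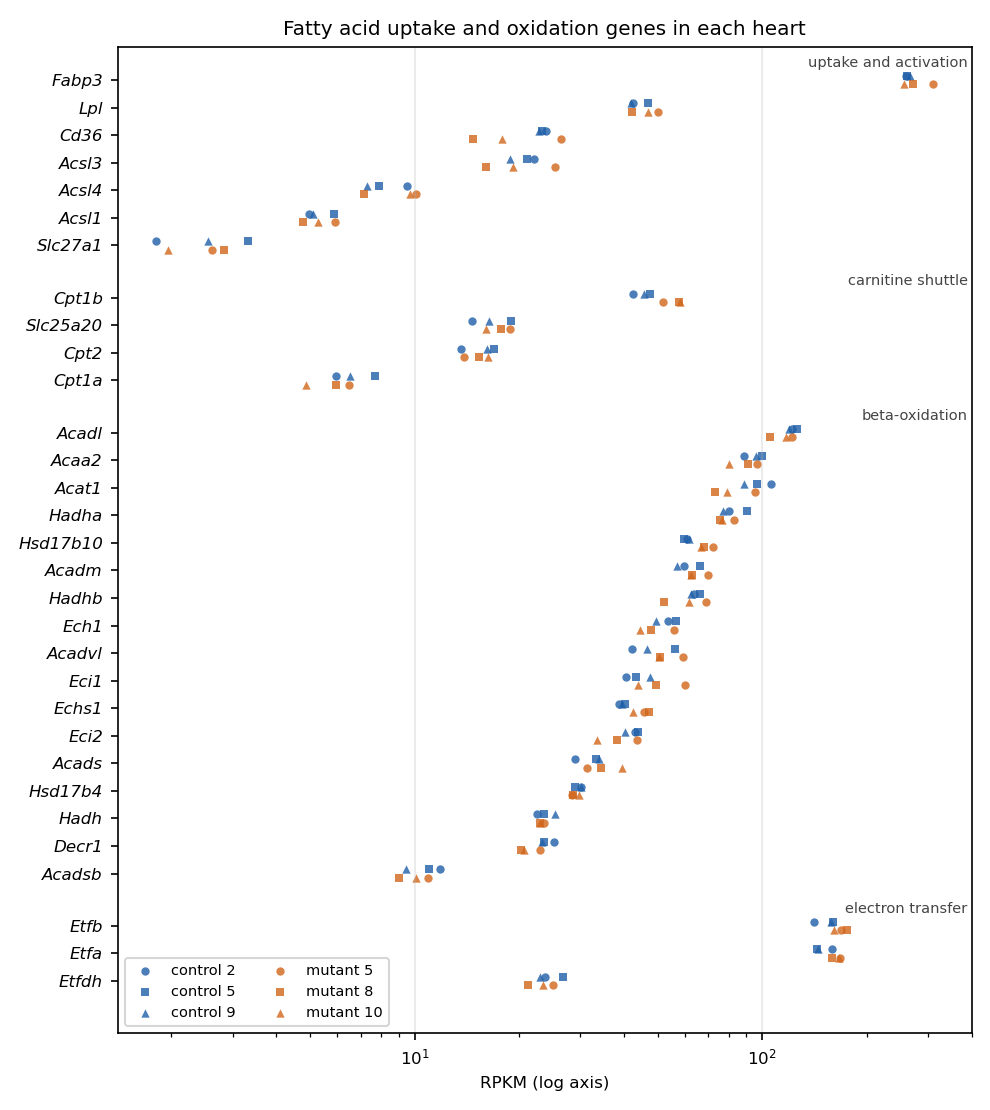
RPKM of each of the 31 genes in each heart, on a log axis, ordered by step and by mean level. Blue points are control hearts and orange points mutant hearts, with 1 symbol per heart. Fabp3 is at the top of the range and Slc27a1 at the bottom, and in most genes the points of both genotypes overlap.

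No member differed between genotypes past the threshold. In limma 0 of 31 members had an adjusted p below 0.05, against 0.818% of all tested genes, 0 under each of 15 other settings, and 1 of 31 (3.23%) had an unadjusted p below 0.05, against 11.2% of all tested genes. Both genotypes' values were apart, with no overlap between hearts, in 5 members (16.1%), against 17.0% of all tested genes. Of these, 4 (12.9%) were higher in mutant hearts, namely Cpt1b, Echs1, Hsd17b10 and Etfb, against 7.6% of all tested genes, and 1 (3.23%), Decr1, was lower, against 9.43%. The difference was above 0 in 14 members (45.2%) and in 42.6% of all tested genes, and the median was -0.03 over the members and -0.03 over all tested genes. By step the median was 0.00 for uptake and activation, 0.02 for the carnitine shuttle, -0.07 for beta-oxidation and 0.14 for electron transfer.

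The intervals give the size of difference these hearts allow. On the log2(RPKM + 1) scale the 95% interval lay within a 1.5-fold change in either direction for 30 of 31 members (96.8%), Cd36 being the exception. The share was 86.1% of all tested genes and 87.9% of the 9720 genes between the lowest and the highest member level. Those 9720 genes were not matched to the members in level within that range. The interval lay within 1.25-fold for 10 members and within 2-fold for all 31. In simulated data for this comparison limma found 48.7% of the genes given a log2 change of 0.6 and 87.7% of those given a change of 1. The changed genes all had a mean log2(RPKM + 1) above 2, and noise was drawn for each gene on its own. These rates therefore do not cover lower genes such as Slc27a1, or variation that genes share within a heart.

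**Figure D2:**
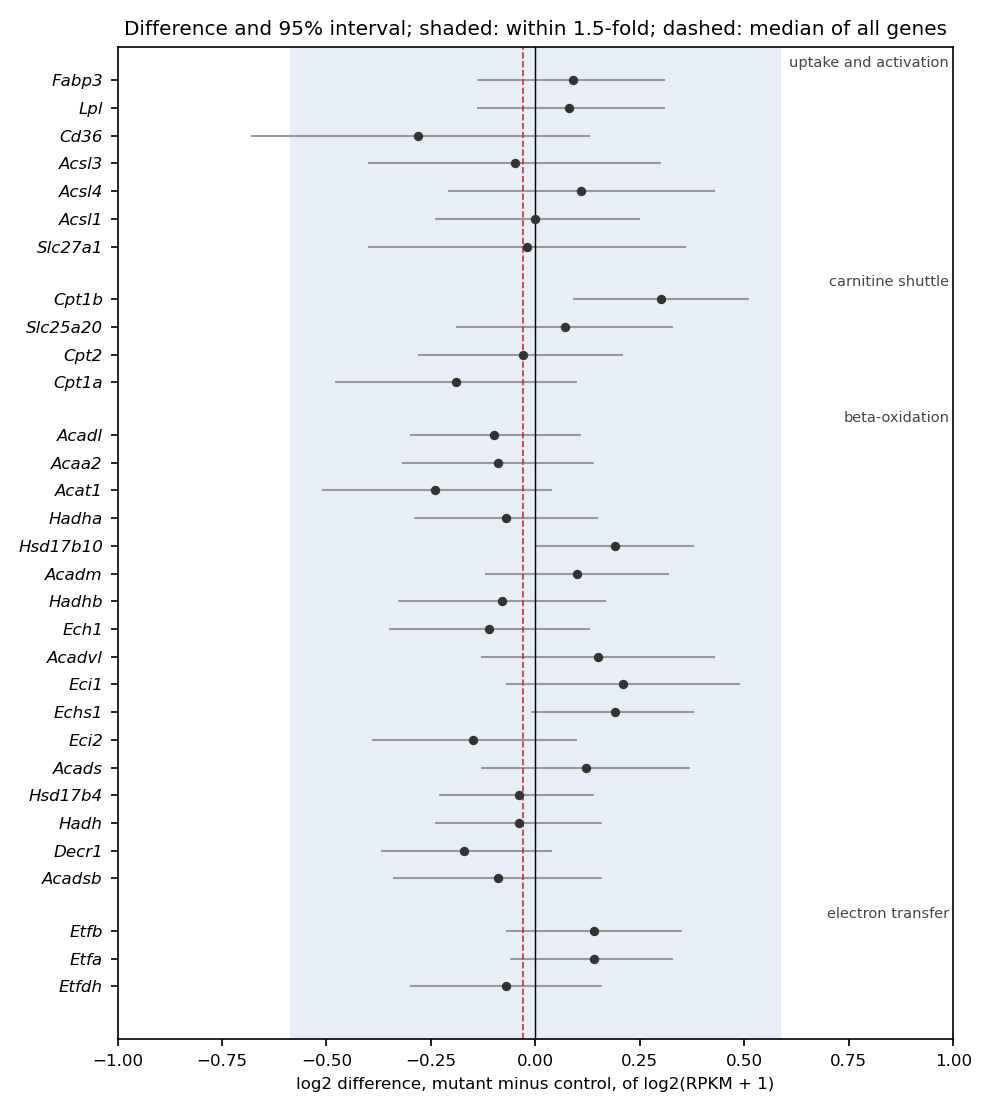
Log2 difference, mutant minus control, of log2(RPKM + 1) with its 95% interval from limma for each of the 31 genes. The shaded band spans a 1.5-fold change in either direction and the dashed line is the median of all tested genes, and the interval of Cd36 is the only one to leave the band.

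On the log2(RPKM + 1) scale Cd36 had the largest SD within genotypes of the 31 members (0.29), ahead of Slc27a1 (0.26). Cd36 (chr5:17781690-17888801, minus strand), the membrane protein that takes up long-chain fatty acids, had 23.9, 23.2 and 22.8 RPKM in the controls 2, 5 and 9. In mutants 5, 8 and 10 it had 26.4, 14.7 and 17.8 RPKM. Mutant 5 was the highest of all 6 hearts, and mutants 8 and 10 were below every control. The means were 23.3 ± 0.58 RPKM in the controls and 19.6 ± 6.1 RPKM in the mutants (SD, n = 3 each), a difference of -0.28 with an interval from -0.68 to 0.13 (limma adjusted p = 0.61). Over the other settings it ran from -0.5 to -0.08, with adjusted p from 0.081 to 0.93.

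Cd36 and Lpl are also expressed outside heart muscle, in endothelium and in macrophages among others. The 12 endothelial and endocardial markers summed to between 169 and 195 RPKM in control and between 161 and 181 RPKM in mutant hearts. Of these 12, all tested, 0 passed the threshold, against 0.818% of all tested genes. Their difference was below 0 in 9 and above 0 in 3, with a median of -0.15. An unadjusted p below 0.05 in limma was found for 4 of the 12, against 11.2% of all tested genes. The 12 macrophage markers in the table summed to between 41.6 and 49.9 RPKM in control hearts and to 35.9, 31.7 and 14.7 RPKM in mutants 5, 8 and 10. Of the 11 tested 0 passed the threshold, against 0.818% of all tested genes. All 11 differences were below 0, with a median of -0.69. In limma 9 of the 11 had an unadjusted p below 0.05, against 11.2% of all tested genes. The 12 epicardial and mesenchymal markers summed to between 494 and 537 RPKM in control and between 312 and 431 RPKM in mutant hearts. All 12 were tested and 0 passed the threshold, against 0.818% of all tested genes. Their difference was below 0 in 11 and above 0 in 1, with a median of -0.37. In 5 of the 12 the unadjusted p in limma was below 0.05, against 11.2% of all tested genes. The ratio of mutant to control mean RPKM was 0.716 for Col1a1, 0.57 for Col1a2 and 0.745 for Col3a1. It was 0.675 for Postn, 0.701 for Dcn, 0.711 for Lum and 0.781 for Pdgfra. It was 0.9 for Wt1, 0.827 for Tbx18, 0.852 for Tcf21, 1.04 for Upk3b and 0.978 for Aldh1a2. The part of these cell types in the values of Cd36 was not tested. In whole hearts fewer cells of a type and less RNA per cell cannot be told apart.

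Fabp3 had 259, 260.1 and 266 RPKM in the control hearts and 310, 270.4 and 255 RPKM in mutants 5, 8 and 10. The mutant values lay on both sides of the controls, with means of 262 ± 3.74 and 279 ± 28.2 RPKM and a difference of 0.09 (interval from -0.14 to 0.31, limma adjusted p = 0.78). Lpl, the secreted lipase that frees fatty acids from circulating triglycerides, averaged 43.7 ± 2.69 RPKM in the controls and 46.4 ± 3.92 RPKM in the mutants. Slc27a1, a transport protein with acyl-CoA synthetase activity, averaged 2.56 ± 0.756 and 2.47 ± 0.457 RPKM. Acsl1, Acsl3 and Acsl4, acyl-CoA synthetases that activate long-chain fatty acids, had means within the spread of either genotype. Acsl1, the main isoform of adult heart, averaged 5.31 ± 0.484 RPKM in the controls and 5.32 ± 0.552 RPKM in the mutants. Acsl3, found on the endoplasmic reticulum and on lipid droplets, averaged 20.7 ± 1.68 and 20.2 ± 4.75 RPKM. Acsl4, which prefers arachidonic acid, averaged 8.24 ± 1.12 and 9 ± 1.6 RPKM. The lowest adjusted p of these 6 genes was 0.78.

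In the carnitine shuttle, Cpt1b came closest to the threshold of all members. Cpt1b and Cpt1a are the muscle and liver isoforms of the outer membrane transferase that commits acyl-CoA to the mitochondria. Cpt1b (chr15:89416405-89425863, minus strand) had 42.5, 47.4 and 45.6 RPKM in the control hearts and 51.9, 57.8 and 58.1 RPKM in mutants 5, 8 and 10. Every mutant heart was above every control heart, with means of 45.2 ± 2.46 and 56 ± 3.5 RPKM. The difference was 0.30 ± 0.09 (SE), a ratio with an interval from 1.07 to 1.43, but it did not pass correction over all genes in limma (adjusted p = 0.25). It ran from 0.24 to 0.36 over the other settings, with adjusted p from 0.16 to 0.57. Cpt1b shares 2744 of its 3372 annotated exon bases with Gm44502, a protein-coding model on the same strand that was not used here, so reads on the shared bases cannot be told apart.

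Cpt1a (chr19:3322334-3385733, plus strand) had 5.95, 7.69 and 6.51 RPKM in the control hearts and 6.5, 5.95 and 4.87 RPKM in mutants 5, 8 and 10. The groups overlapped, with means of 6.72 ± 0.89 and 5.78 ± 0.828 RPKM and a difference of -0.19 (interval from -0.48 to 0.10, limma adjusted p = 0.62). Cpt1b thus made up 87.7%, 86% and 87.5% of the summed RPKM of both isoforms in the control hearts and 88.9%, 90.7% and 92.3% in mutants 5, 8 and 10. The muscle isoform's share was above every control in each mutant heart, by 3.52 percentage points on average. An exact two-sided permutation test over hearts gave p = 0.1, the smallest that 3 against 3 allows, and 0.15 after Benjamini-Hochberg adjustment over the 3 isoform shares tested. Slc25a20, the translocase of the inner membrane, averaged 16.7 ± 2.14 RPKM in the controls and 17.5 ± 1.42 RPKM in the mutants. Cpt2, which restores acyl-CoA in the matrix, averaged 15.6 ± 1.74 and 15.2 ± 1.17 RPKM.

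The other isoform shares gave 1 separation and 1 overlap. The sums behind the shares leave out related genes, among them Cpt1c, Fabp7 and Acsl5. Acsl5 averaged 15 ± 0.66 RPKM in the controls and 15.1 ± 1.4 RPKM in the mutants. Acsl1 held 15.6% ± 1.8 of the summed RPKM of Acsl1, Acsl3 and Acsl4 in control and 15.6% ± 1.4 in mutant hearts (SD, n = 3 each, exact permutation p = 1). Fabp3 held 80.3%, 79.7% and 80.6% of the summed RPKM of Fabp3, Fabp4 and Fabp5 in the control hearts and 81.7%, 83.2% and 85.1% in mutants 5, 8 and 10. Its share was higher in every mutant heart, by 3.15 points (exact permutation p = 0.1, adjusted 0.15). Fabp4 had 15.1, 22.8 and 18.2 RPKM in the control hearts and 11.7, 7.06 and 2.9 RPKM in mutants 5, 8 and 10. Fabp5 averaged 45.9 ± 2.41 RPKM in the controls and 49 ± 8.07 RPKM in the mutants. Of the 3 genes in this sum only Fabp4 was apart between genotypes, and Fabp3 and Fabp5 overlapped. Fabp4 is a binding protein of adipocytes, macrophages and capillary endothelium. Its values fell from mutant 5 to 8 to 10, as did the summed macrophage markers. Over controls 2, 5 and 9 the orders differed, with macrophage sums of 41.6, 49.8 and 49.9 RPKM. The median log2 deviation from the control mean also fell over these mutants for endothelial and endocardial markers (-0.05, -0.17 and -0.21). For epicardial and mesenchymal markers it was -0.22, -0.28 and -0.48. Cardiomyocyte and erythroid markers did not have this order. The part of macrophages or other cell types in the share was not tested.

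**Figure D3:**
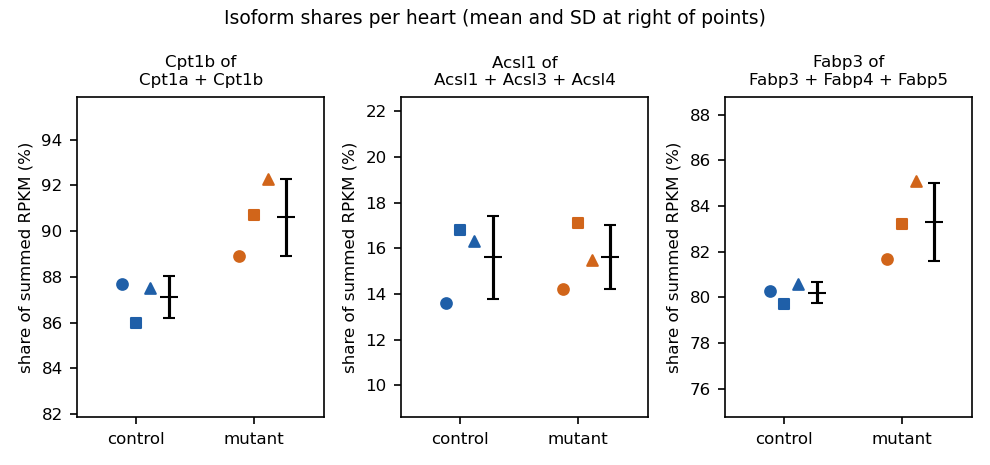
Share of an isoform in the summed RPKM of the genes named in each panel title (%, axes do not start at 0), for Cpt1b, Acsl1 and Fabp3. The sums do not cover whole families. Circles, squares and triangles are controls 2, 5 and 9 in blue and mutants 5, 8 and 10 in orange, and the bars at the right of the points are the mean ± SD. The shares of Cpt1b and Fabp3 are higher in each mutant heart than in each control heart, and those of Acsl1 overlap.

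The acyl-CoA dehydrogenases catalyse the first step of each round of beta-oxidation, each for its own chain length. Acadl, for long chains, had 122, 126 and 119 RPKM in the control hearts and 122, 105 and 117 RPKM in mutants 5, 8 and 10, overlapping between genotypes (difference -0.10, interval from -0.30 to 0.11). Acadvl, for very long chains, averaged 48.3 ± 7.21 and 53.4 ± 4.81 RPKM, Acadm, for medium chains, 60.8 ± 4.72 and 65.1 ± 4.06 RPKM, and Acads, for short chains, 32 ± 2.74 and 35 ± 4.11 RPKM in control and mutant hearts. Acadsb, for short branched chains from isoleucine, averaged 10.7 ± 1.19 and 10 ± 0.912 RPKM. Across these 5 dehydrogenases the adjusted p was at least 0.69, with differences from -0.10 to 0.15. Acadvl shares 1151 of 2686 exon bases with Dvl2 on the opposite strand, and whether the libraries kept the strand is unknown here. Dvl2 averaged 11.9 ± 1.35 RPKM in the controls and 13.3 ± 0.566 RPKM in the mutants.

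The later steps of the spiral gave differences in both directions. Echs1 (chr7:140105710-140116476, minus strand), the short-chain enoyl-CoA hydratase, had 38.7, 40.4 and 39.4 RPKM in the control hearts and 45.7, 47.1 and 42.4 RPKM in mutants 5, 8 and 10. Every mutant heart was above every control heart, with a difference of 0.19 (interval from -0.01 to 0.38, limma adjusted p = 0.47). Hsd17b10 (chrX:152001845-152004442, plus strand), a mitochondrial dehydrogenase that oxidises branched-chain acyl-CoA intermediates and is also a subunit of mitochondrial RNase P, had 60.7, 59.4 and 61.5 RPKM in the control and 72.3, 68.2 and 66.7 RPKM in the mutant hearts. Its groups did not overlap either, with a difference of 0.19 and an adjusted p of 0.45 in limma. Hadh, the dehydrogenase for medium and short hydroxyacyl-CoA, averaged 23.9 ± 1.46 RPKM in the controls and 23.1 ± 0.328 RPKM in the mutants.

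Hadha and Hadhb encode the subunits of the mitochondrial trifunctional protein, which carries out the last 3 reactions of each round on long chains. Hadha averaged 82.5 ± 7.17 RPKM in the controls and 78.3 ± 4.11 RPKM in the mutants, and Hadhb 64.2 ± 1.93 and 61 ± 8.3 RPKM. The ratio of Hadha to Hadhb was 1.28 ± 0.073 in control and 1.3 ± 0.13 in mutant hearts, so the balance of the divergent pair differed by less than the spread between hearts. Acaa2, the thiolase that releases acetyl-CoA, averaged 95 ± 5.9 and 89.2 ± 8.39 RPKM. Acat1 (chr9:53580522-53610382, minus strand), the acetoacetyl-CoA thiolase shared with ketone body and isoleucine breakdown, had 106, 96.5 and 88.8 RPKM in the control hearts and 95.4, 73.1 and 79.2 RPKM in mutants 5, 8 and 10. Mutants 8 and 10 were below every control and mutant 5 was among them, and the difference of -0.24 did not pass (interval from -0.51 to 0.04, limma adjusted p = 0.51).

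The auxiliary enzymes prepare unsaturated chains for the spiral. Decr1 (chr4:15917240-15945507, minus strand), the dienoyl-CoA reductase, had 25.1, 23.6 and 23.3 RPKM in the control and 22.9, 20.3 and 20.6 RPKM in the mutant hearts. It was the only member with every mutant heart below every control heart, and its difference was -0.17 (interval from -0.37 to 0.04, limma adjusted p = 0.53). Eci1 and Eci2, both enoyl-CoA isomerases, differed in sign. Eci1 averaged 43.8 ± 3.6 RPKM in the controls and 51.2 ± 8.2 RPKM in the mutants, where mutant 5 had 60 RPKM, and Eci2 averaged 42.4 ± 1.78 and 38.4 ± 5.1 RPKM. Neither passed (limma adjusted p = 0.57 and 0.66). Ech1, a dienoyl-CoA isomerase, averaged 53.2 ± 3.44 and 49.4 ± 5.73 RPKM. Hsd17b4, the peroxisomal multifunctional enzyme for very long and branched chains, averaged 29.8 ± 0.668 and 28.8 ± 0.77 RPKM, with an interval from -0.23 to 0.14.

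Electron transfer flavoprotein takes electrons from the acyl-CoA dehydrogenases. Its alpha subunit Etfa (chr9:55454508-55512243, minus strand) had 159, 144 and 145 RPKM in the control hearts and 167, 159 and 166 RPKM in mutants 5, 8 and 10. Its beta subunit Etfb (chr7:43444083-43457800, plus strand) had 141, 160.1 and 158 RPKM in the control and 168, 175 and 161 RPKM in the mutant hearts. Both means were higher in mutant hearts by 0.14 on the log2 scale, with intervals from -0.06 to 0.33 and from -0.07 to 0.35, and neither passed (limma adjusted p = 0.60 and 0.62). Etfa over Etfb was 0.983 ± 0.13 in control and 0.979 ± 0.063 in mutant hearts. Etfdh, the dehydrogenase that hands the electrons to ubiquinone, averaged 24.5 ± 2.02 and 23.2 ± 1.92 RPKM. Etfb shares 617 of its 1164 annotated exon bases with Gm45233 on the same strand, which was not used here. Acsl1 shares 1039 of 10483 with Gm45244 on the opposite strand, and Fabp3, Acsl3, Echs1, Eci2, Etfdh and Hadha share 278 or fewer with any other gene.

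The sign of the difference moved with gene length in these libraries. Length here is that of the constitutive exons the deposited table names for each gene, which is shorter than all annotated exons in some genes (1710 against 3372 bases for Cpt1b). Spearman's rho between exon length and difference was -0.36 over the 31 members and -0.26 over 12591 tested genes, a description across genes of the same libraries. The 8 shortest members, from 823 bases for Fabp3 to 1835 bases for Etfa, had a median difference of 0.14 with 7 above 0, and the other 23 had a median of -0.05 with 7 above 0. With a correction for exon length the difference of Cpt1b was 0.26, that of Hsd17b10 0.14, and those of Etfa and Etfb 0.10 and 0.08. That of Echs1, whose constitutive exons sum to 5274 bases, was 0.21. The part of length in any single difference was not tested beyond this.

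The hearts of each genotype also differed among themselves across the pathway. Against the mean of the controls, the median deviation of the 31 members was -0.03, 0.05 and -0.04 in the control hearts and 0.10, -0.06 and -0.05 in mutants 5, 8 and 10. Mutant 5 was the highest mutant heart for 24 of 31 members (77.4%), against 39.3% of all tested genes. In mutant 5 all 7 uptake and activation genes were above the control mean, with a median of 0.19, whereas in mutants 8 and 10 only 2 of 7 were above it in each. Mutant 10 was the lowest mutant heart for 14 members (45.2%), against 23.0% of all tested genes. These shares describe single hearts, whose values for all members come from 1 library, and were not tested. Erythroid transcripts, which summed to 11718, 21062 and 13674 RPKM in mutants 5, 8 and 10 and to between 13961 and 16570.4 RPKM in control hearts, were lowest in mutant 5, and their part in the order of the hearts was not tested.

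**Figure D4:**
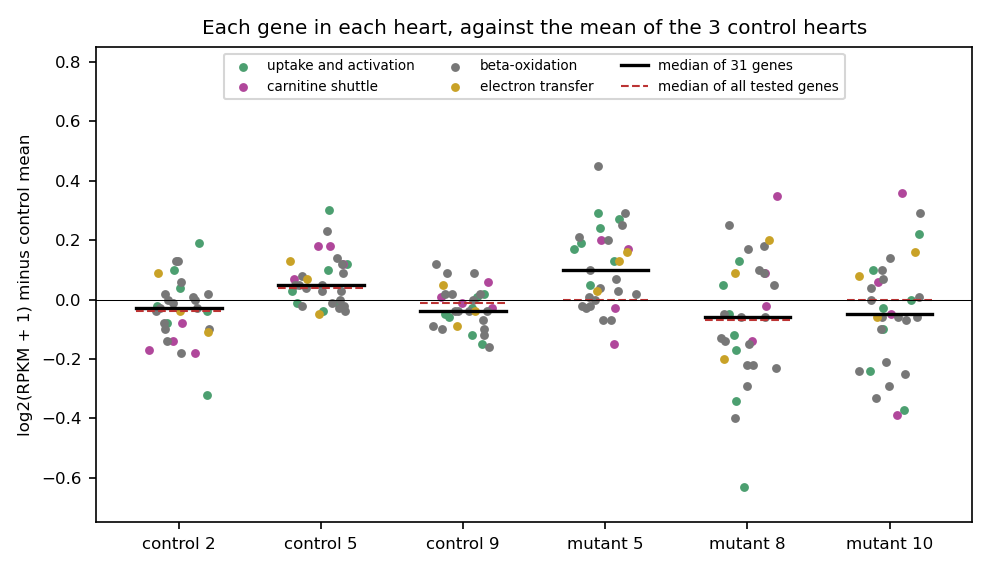
Deviation of log2(RPKM + 1) from the mean of the 3 control hearts, for each of the 31 genes in each heart, coloured by step. Black bars are the median of the 31 genes (0.10 in mutant 5, -0.06 in mutant 8 and -0.05 in mutant 10) and dashed red bars the median of all tested genes, and the points of mutant 5 sit highest among the mutant hearts.

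Genes around the pathway were read from 8 lists covering regulators, further uptake genes, peroxisomes, related enzymes, ketone bodies, lipid storage and synthesis. Of 75 tested genes in these lists 1 passed the threshold (1.33%), against 0.818% of all tested genes. Bdh1, the mitochondrial dehydrogenase that interconverts the ketone bodies acetoacetate and beta-hydroxybutyrate, had 3.26, 3.45 and 2.89 RPKM in the control hearts and 5.88, 6.38 and 5.63 RPKM in mutants 5, 8 and 10. Bdh1 rose by 0.73 ± 0.10 (SE) on the log2 scale, with limma adjusted p = 0.012. The call was lost without control 9 (0.68, adjusted p = 0.062) and without mutant 10 (0.77, adjusted p = 0.056). Oxct1, which activates acetoacetate for use as fuel, did not pass (difference -0.03) and was abundant, at 98.3 ± 5.43 RPKM in the controls and 96.9 ± 14 RPKM in the mutants.

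Transcriptional regulators of fatty acid oxidation did not pass the threshold either, with 0 of 11 tested genes called and a median difference of 0.00. Klf15, a transcription factor that promotes lipid use in muscle, averaged 1.25 ± 0.145 RPKM in the controls and 1.91 ± 0.0708 RPKM in the mutants, without overlap (difference 0.37, limma adjusted p = 0.17). Ppargc1b, a coactivator of PPAR and ERR receptors, averaged 1.83 ± 0.192 and 2.47 ± 0.128 RPKM (difference 0.29, adjusted p = 0.30). Esrra differed by 0.16 and Nrip1 by -0.14. Ppara and Pparg were in the table but below the filter. Among the enzymes that set malonyl-CoA, the inhibitor of the outer carnitine transferase, Mlycd differed by 0.13, and Acacb and Acaca by -0.02 each, with 0 of 3 called.

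The remaining lists had 0 genes past the threshold, with medians from -0.10 to -0.01. Of 12 further uptake and binding genes, Fabp4 had the largest difference, at -1.40 ± 0.36 (SE, limma adjusted p = 0.16). It passed without mutant 5 (-1.79, adjusted p = 0.021) and not under the other settings, where the difference came to -0.94 without mutant 10 (adjusted p = 0.24) and the adjusted p reached 0.48 without control 5. Slc22a5, the carnitine transporter, differed by -0.26, Cpt1c by -0.29 and Fabp7 by -0.23. Of 14 peroxisomal genes, Phyh, which starts the breakdown of phytanic acid, differed by -0.22, Acox3 by -0.15, Crot by -0.12 and Scp2 by -0.11. Of 12 further acyl-CoA dehydrogenases and thioesterases, Acot2 differed by 0.29, Acad11 by 0.20, Acot7 by -0.16 and Acad8 by -0.13. Of 9 genes of lipid droplets and lipolysis, the lipase gene Mgll averaged 1.62 ± 0.337 RPKM in the controls and 0.913 ± 0.0794 RPKM in the mutants, without overlap (difference -0.45, adjusted p = 0.17). Hilpda, a droplet protein known as a HIF target, averaged 5.63 ± 0.0786 and 4.59 ± 0.801 RPKM (difference -0.26, adjusted p = 0.46), Pnpla2 differed by 0.28 and Dgat2 by 0.26. Of 12 genes of fatty acid synthesis, Elovl1 differed by 0.20, Acly by 0.10, Elovl5 by 0.09 and Oxsm by -0.10.

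**Figure D5:**
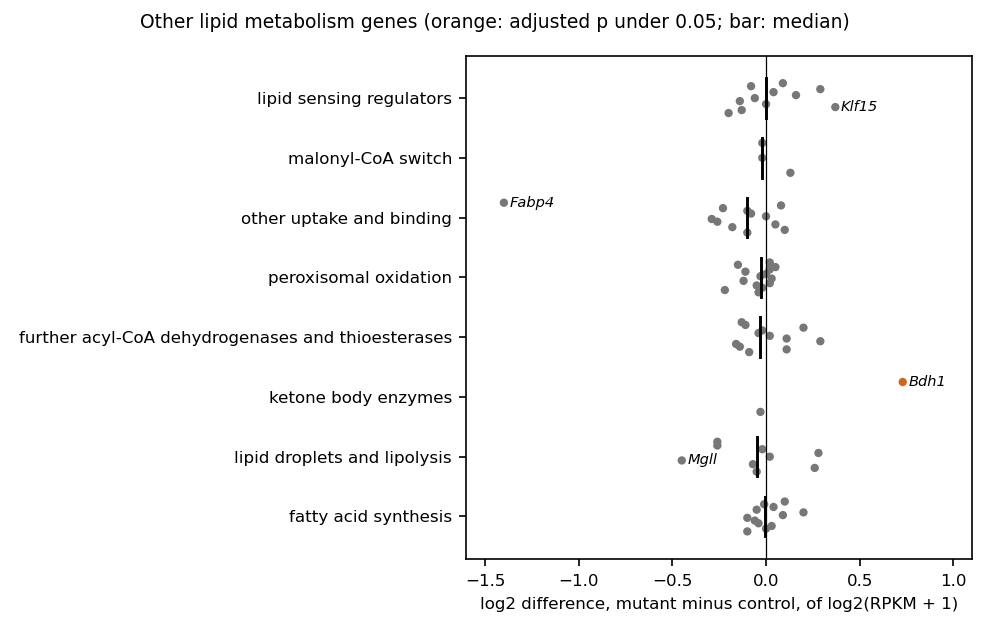
Log2 difference, mutant minus control, of log2(RPKM + 1) for the tested genes of 8 further lists of lipid metabolism, 1 point per gene. Black bars are medians of lists with 3 or more genes, Bdh1 (0.73) is the only orange point, which marks an adjusted p below the threshold in limma, and Fabp4 (-1.40) lies farthest to the left without passing it.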

How the data were processed

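Total RNA from 6 hearts was extracted with TRIzol and made into Illumina libraries, per the labels' protocols. The submitters' processing notes name Trim Galore, TopHat2 and mm10. What counted the reads, on which annotation and with which strand setting is not given in the sources used. The deposited values are RPKM made by the authors per gene and heart. The unit was inferred from the values: in single-exon genes 89.4% to 93.7% of low values fell within 0.1 of a whole number of reads, against at most 19.9% (median) for other steps.

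Values were tested as log2(RPKM + 1) in R 4.3.3 by limma 3.58.1 with trended prior variance, all 6 hearts and no covariates. A gene was tested if 3 or more libraries had 1 RPKM or more (13080, leaving out 2038), with Benjamini-Hochberg adjustment over all of them and 95% intervals. All tests were two-sided. The members and lists were chosen with earlier results of these data known. The genes named are the 31 members, up to 4 genes with the smallest p of each further list and any past the threshold, and Hif1a. Outside that rule Fabp5 is named as part of an isoform share. Chosen after their values were seen, Dvl2 is named as an overlapping gene, Ppara and Pparg as below the filter and Acsl5 as left out of a share. Overlaps were counted on all annotated exons and lengths on the constitutive exons named in the table. Marker lists are given as sums, some with counts. Naming the epicardial and mesenchymal markers beside their sum was decided after their values were seen. Some genes of the further lists are not reported here. Isoform shares used an exact permutation test over hearts in Python 3.11.15 with scipy 1.17.1. Gene positions and exon overlaps were taken from GENCODE M21 (mm10), where 14877 of the genes were found, and exon lengths, approximate where the authors' annotation differed, were found for 14480. Promoters came from RefSeq (GRCm38.p6). The fit was tested on simulated data (3 runs, 200 changed genes among 13080), with 2.6% false calls. The changed genes were drawn from the more highly expressed genes, and noise was independent between genes. Alternatives were median centring, rescaling without haemoglobin genes, no filter, a minimum of 5 RPKM, limma without trend, pseudocounts of 0.1 and 5, a correction for exon length, leaving out both end hearts of the first principal component, and leaving out each heart.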

Additional observations from a re-analysis of the deposited data

How the results depend on the processing

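Across 15 other settings 0 of 31 members passed the threshold in any. Of 464 member values 446 kept their sign and side of the threshold, and 18, in 8 genes, changed sign, with 0.14 as the largest size after the change. With median centring Slc27a1 was 0.01, Cpt2 0.00, Acacb 0.01, Acaca 0.02 and Oxct1 0.01. Rescaled without haemoglobin genes Acsl1 was -0.03. With the exon length correction Acacb and Acaca were 0.06 and the median of the electron transfer genes was 0.08. Without control 2 and mutant 8, the end hearts of the first principal component, Acsl3 was 0.14, Slc25a20 -0.03, Acadsb 0.04, Hadhb 0.02, Acaca 0.06, Scp2 0.01, Crot 0.08, Oxct1 0.14, the share of Acsl1 -1.71 points, and the medians of beta-oxidation and electron transfer -0.03 and 0.05. The cause was not tested. Leaving out each heart in turn gave -0.18 to 0.13 for Slc27a1, -0.12 to 0.02 for Cpt2, -0.06 to 0.07 for Acsl1, -0.22 to 0.09 for Acsl3, -0.01 to 0.16 for Slc25a20, -0.17 to 0.02 for Hadhb, -0.08 to 0.00 for Hadh, -0.09 to 0.02 for Acacb, -0.06 to 0.05 for Acaca, -0.10 to 0.09 for Oxct1, -0.97 to 0.72 points for the share of Acsl1, and 0.08 to 0.13 for the electron transfer median. When hearts were left out, the shares of Cpt1b and Fabp3 stayed higher in mutant hearts, by 2.69 to 4.38 and 2.27 to 3.97 points. Shares were not computed under the other settings, the exon length correction among them. With that correction the difference of Fabp3 was 0.02, that of Cpt1b 0.26 and that of Cpt1a -0.18.

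The count over all genes was 45 to 198 when a heart was left out: 198 without mutant 5, 62, 45 and 68 without controls 2, 5 and 9, and 46 without mutant 10. Of 107 calls 55 were higher, against 57 of 91 with median centring and 54 of 135 rescaled without haemoglobin genes, and the median of all genes shifted to between -0.065 and 0.006 over these settings. No paired analysis was possible because the genotypes share only the number 5. With 3 hearts per genotype, differences under about 1.5-fold were often not detectable, and the read depth is implied by the values, not stated.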
